A study of Mus musculus with 21 samples.

Results

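The clustered histone genes are the genes for the H1, H2A, H2B, H3 and H4 proteins that lie together on mouse chromosomes 13, 3, 11 and 6, and they were taken as every gene of the table whose symbol begins with Hist1h, Hist2h, Hist3h or Hist4h. The table of 24454 genes held 69 of them, with 6 H1, 19 H2A, 19 H2B, 12 H3 and 13 H4 genes, of which 55 lay on chromosome 13, 10 on chromosome 3, 3 on chromosome 11 and 1 on chromosome 6. RNA was sequenced from 21 libraries of mouse embryonic fibroblasts (MEFs), 3 in each of 7 groups. Rtel1 F/F cells, which carry a floxed Rtel1 allele, were infected with adenovirus for GFP (+GFP), with adenovirus for Cre and GFP (+Cre), or with the GFP virus and then treated for 48 h with 10 µM TMPyP4, a ligand that stabilizes G-quadruplex DNA (G4). The same cells, stably transduced from a pBabe vector with RTEL1 carrying C1252A/C1255A, a change in a domain through which RTEL1 binds the telomere protein TRF2, were given the GFP or the Cre virus. MEFs with a floxed Terf1 gene (Terf1 F/F), which encodes a telomere-binding protein, were also given either virus. All cells were collected 96 h after infection, so every group carries an adenovirus and floxed alleles, every control carries GFP, and the C1252A/C1255A cells hold RTEL1 from the vector beside the floxed gene. The replicates are labelled as biological, but nothing says whether they were separate cultures or embryos, and p-values measure the spread between these libraries only.

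Histones wrap DNA into nucleosomes (H2A, H2B, H3 and H4) and H1 binds the linker DNA between them. Most clustered histone genes are transcribed in S phase, when new DNA needs new histones, and their mRNAs end in a short stem-loop rather than a poly(A) tail. The stem-loop is bound by SLBP, which governs processing, translation and decay of the message when replication stops. Some of these genes also give polyadenylated mRNAs, by splicing past the stem-loop or by using a poly(A) site further on, and the libraries here were made with a kit that captures mRNA by its poly(A) tail.

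The end of the message was read from the GENCODE vM21 gene models (GRCm38, the assembly also called mm10), and the authors counted on RefSeq models, whose ends may differ. A stem-loop of 16 bases was searched in every transcript as 6 stem bases, a loop of 4 and 6 stem bases in the letters of the histone hairpin, with some positions free to vary, and 46 of the 69 genes held one. The commonest form, in 26 genes, is the one shown for Hist1h1c. The hairpins below, with 5 bases on each side and the stem-loop in capitals, belong to members among the highest of their class or to a member named below for its change. They lie in the 3′ untranslated part of single-exon genes at chr13:23739512-23739527 (plus strand) for Hist1h1c, chr3:96246032-96246047 (plus) for Hist2h2aa1, chr13:23747203-23747218 (plus) for Hist1h2bb, chr13:23535889-23535904 (plus) for Hist1h3g, chr13:22040966-22040981 (minus) for Hist1h4i and chr13:23531458-23531473 (plus) for Hist1h4h.
Hist1h1c: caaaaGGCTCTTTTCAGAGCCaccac
Hist2h2aa1: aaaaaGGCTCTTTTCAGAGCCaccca
Hist1h2bb: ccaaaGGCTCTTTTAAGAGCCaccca
Hist1h3g: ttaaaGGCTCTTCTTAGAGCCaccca
Hist1h4i: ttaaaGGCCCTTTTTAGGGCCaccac
Hist1h4h: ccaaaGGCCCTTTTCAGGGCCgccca
The models of 23 genes, those of Hist1h1c, Hist1h4i and Hist3h2a among them, ran on for 100 bases or more past the stem-loop, by 840, 330 and 1643 bases in these 3. No stem-loop of these letters was found in 23 genes. In 17 of them the model stopped within 48 bases of the stop codon, in 2 no stop codon was annotated, and in Hist1h2bc, Hist2h2be, Hist1h2bq and Hist1h2br the model ran on for 742 bases or more. A missing match says only that these letters are not in the model.

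Hist1h2bc, an H2B gene at chr13:23684199-23692908 on the plus strand, is among the 5 members with a spliced model. All 5 are H2B genes, and Hist1h2bq and Hist1h2br, with up to 3 exons, are others. Its model has 2 exons, the first of 423 bases with the coding sequence and the second of 733 bases, and it is spliced 9 bases after the stop codon over an intron of 7554 bases. It lies head to head with the H2A gene Hist1h2ac. The 239 bases between both starts (chr13:23683960-23684198, plus strand) are shown because they lie directly upstream of the most abundant member. The sequence and the Hist1h2ac start came from the RefSeq promoter table of GRCm38.p6, and the Hist1h2bc start from GENCODE. The GENCODE model of Hist1h2ac starts at position 23683948. Capitals mark matches, on either strand, to the TATA box letters TATAAA, to the letters of the CCAAT box, and to ATTTGCAT, the octamer of H2B promoters. The sole TATAAA match is on the minus strand, that of Hist1h2ac, and lies 213 bases before the Hist1h2bc start.
Hist1h2ac-Hist1h2bc: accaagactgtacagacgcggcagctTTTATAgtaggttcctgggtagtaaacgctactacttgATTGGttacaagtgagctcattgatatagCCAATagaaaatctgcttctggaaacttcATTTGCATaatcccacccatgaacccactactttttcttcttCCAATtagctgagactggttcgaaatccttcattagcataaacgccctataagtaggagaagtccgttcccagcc
Promoter windows of 300 bases (250 before the start and 50 after it) were on hand for 62 of the 69 members. CCAAT, on either strand, stood in all 50 windows of the H1, H2A, H2B and H3 genes and in 3 of 12 H4 windows, against 37.9% of all 27025 promoters. ATTTGCAT was found in 7 of 18 H2A and 6 of 16 H2B windows and in 0 of 28 H1, H3 and H4 windows, against 1.75% of all promoters. Windows of head-to-head H2A and H2B genes, such as Hist1h2ae and Hist1h2bg, overlap, so the same match can count in both classes. TATAAA was found in 35 of 62 windows, against 14.2%. AAACACA, the letters of the H1 box, stood in 5 of 6 H1 windows against 7.14% of all promoters. These are descriptions of sequence, and no binding was measured.

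Total counts ran from 32069890 to 51938590 per library, with a median of 43013210. Rtel1 was 61.8 ± 3.83 CPM (library-size normalized counts, written as mean ± SD with n = 3 throughout) in Rtel1 F/F +GFP and 29.5 ± 2.56 in +Cre libraries, and 332 ± 4.80 and 265 ± 16.3 in the C1252A/C1255A cells. Terf1 was 29.3 ± 1.21 CPM in Terf1 F/F +GFP and 0.0608 ± 0.0434 in +Cre libraries. Of 7 fibroblast markers 6 exceeded 1 CPM in every library and their sum ran from 4002 to 20436 CPM. Thy1, the exception, was at 0.490 CPM or less in every library of the Rtel1 F/F line and between 222 and 269 in those of Terf1 F/F cells. The fibroblast sum was 12807 to 13725 CPM in Rtel1 F/F +GFP and 4002 to 9284 in the other groups of that line. Markers of epithelial, endothelial, leukocyte and muscle cells summed to at most 6.62 CPM. The sum of 3 neural markers was 10.7 to 27.2 CPM in the Rtel1 F/F groups and 95.8 to 121.3 in Terf1 F/F cells, from Map2, with Sox10 at or near 0. Their part in the results was not tested.

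Clustered histone mRNAs were scarce in these libraries. Counts of 10 or more in at least 3 libraries were reached by 38 of the 69 genes (5 H1, 8 H2A, 12 H2B, 5 H3 and 8 H4). The other 31 genes had at most 19 counts in any library, and Hist1h2aa and Hist2h2aa2 were at 0 throughout. Of the 38, 33 passed the filter for the test (5 H1, 6 H2A, 11 H2B, 5 H3 and 6 H4). Hist1h2bq and Hist1h2br had identical counts in all 21 libraries and are 1 measurement. Reads shared by near-identical copies were divided by RSEM, so the level of any single copy is uncertain, and the models of Hist1h1e and Hist1h2be overlap on the same strand.

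The level differed widely between members. Per length, Hist1h2bc was highest with a mean of 210.2 TPM (the length-normalized share of transcripts) over the 21 libraries. Hist1h1c, a linker histone gene, followed with 45.9 TPM, then Hist1h4i with 22.6 and Hist3h2a with 12.8, and no other member's mean exceeded 4.09. This order pools groups that differ. In Terf1 F/F +GFP Hist3h2a (10.9 TPM) was above Hist1h4i (4.94), and in Rtel1 F/F +GFP Hist2h2aa1 and Hist1h4h reached 7.09 and 7.08 TPM. On the CPM scale Hist1h2bc made up 43.2% to 84.7% of the counts of all members, with a median of 60.8% over libraries.

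Loss of Rtel1 was compared first, since the study asked whether RTEL1 affects transcription. Hist1h2bc rose most clearly. Its level was 50.7, 41.5 and 47.8 CPM in replicates 1, 2 and 3 of Rtel1 F/F +GFP and 164, 118 and 139 in +Cre. The lowest +Cre library was above the highest +GFP library. The log2 fold change was 1.59 ± 0.15 (SE), a 3.01-fold rise (edgeR quasi-likelihood test with Benjamini-Hochberg adjustment over 13719 genes, used for every adjusted p here unless another test is named, adjusted p = 1.13e-07), and all 14 other fits called it.

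Another 3 members rose after Rtel1 loss, all at low counts. Hist1h1b, a linker histone gene, had 28, 25 and 21 counts in +GFP and 57, 36 and 48 in +Cre (log2 fold change 1.18 ± 0.29, adjusted p = 0.00207). Hist1h1a, another linker histone gene, had 5, 13 and 11 against 35, 17 and 19 counts (1.53 ± 0.41, adjusted p = 0.00393). Hist1h2bb, an H2B gene with a stem-loop, had 6, 4 and 6 against 12, 10 and 13 counts (1.37 ± 0.39, adjusted p = 0.00648), and its call held in 5 of 14 other fits and in 1 of the 6 that left out a library. These 3 groups of libraries did not overlap, and each rise rests on 57 reads or fewer per library.

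Altogether 4 of the 33 tested members rose and 0 fell by edgeR after Rtel1 loss, and 11 had an unadjusted p under 0.05. Over all genes tested 43.0% were called, and 22.0% were called higher. By DESeq2 3 rose and 0 fell. By class, 2 of 5 H1 and 2 of 11 H2B genes rose, and none of the 6 H2A, 5 H3 or 6 H4 genes was called. The count of 4 changed with the library left out. It was 1 without +Cre replicate 1 and 1 without +GFP replicate 3 (Hist1h2bc in both), 2 without +GFP replicate 1, and 7 without +Cre replicate 2. Against the +GFP libraries of the C1252A/C1255A cells Hist1h2bc was still called (log2 fold change 0.77, adjusted p = 0.00133), Hist1h1a and Hist1h1b were not (adjusted p = 0.313 and 0.104), and Hist1h2bb was at -0.06 (adjusted p = 0.955). The median log2 fold change of the tested members was 0.74, beside -0.03 over all genes, and the median SE was 0.73 beside 0.12.

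The other abundant members did not pass the test. Hist1h1c was at 23.9, 21.2 and 21.01 CPM in +GFP and 35.3, 6.90 and 25.5 in +Cre (log2 fold change 0.04 ± 0.61, adjusted p = 0.970). Hist1h4i was at 5.92, 3.66 and 4.43 against 9.07, 1.46 and 3.22 CPM (-0.02 ± 0.88, adjusted p = 0.993). In both genes +Cre replicate 1 was above every +GFP library and replicate 2 below every one. Hist3h2a, an H2A gene with a long tail past its hairpin, was at 1.96, 2.47 and 1.76 against 4.78, 1.32 and 4.72 CPM (0.80 ± 0.52, adjusted p = 0.202). Hist2h2be, an H2B gene whose model runs on after the stop codon without a stem-loop, was at 3.65, 3.97 and 3.83 against 4.13, 5.43 and 5.05 CPM (0.35 ± 0.14, adjusted p = 0.0458), with no overlap between groups.

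The next members by level were low and spread widely. Hist2h2aa1, an H2A gene, was at 1.36, 1.40 and 1.42 CPM in +GFP and 3.52, 0.199 and 0.901 in +Cre (log2 fold change 0.16 ± 0.97, adjusted p = 0.902). Hist1h2bg, an H2B gene, was at 0.312, 0.473 and 0.601 against 1.82, 0.174 and 1.47 CPM (1.31 ± 0.73, adjusted p = 0.140). Hist1h4h was at 1.36, 0.904 and 0.601 against 2.42, 0.149 and 0.983 CPM (0.33 ± 0.97, adjusted p = 0.791). In each of the 3, +Cre replicate 1 was above and replicate 2 below every +GFP library. The H3 genes Hist1h3g (0.356, 0.452 and 0.300 against 1.28, 0.149 and 0.573 CPM) and Hist2h3c2 (0.601, 0.452 and 0.601 against 1.65, 0.199 and 0.901 CPM) had the same order, with adjusted p = 0.399 and 0.535.

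**Figure D1:**
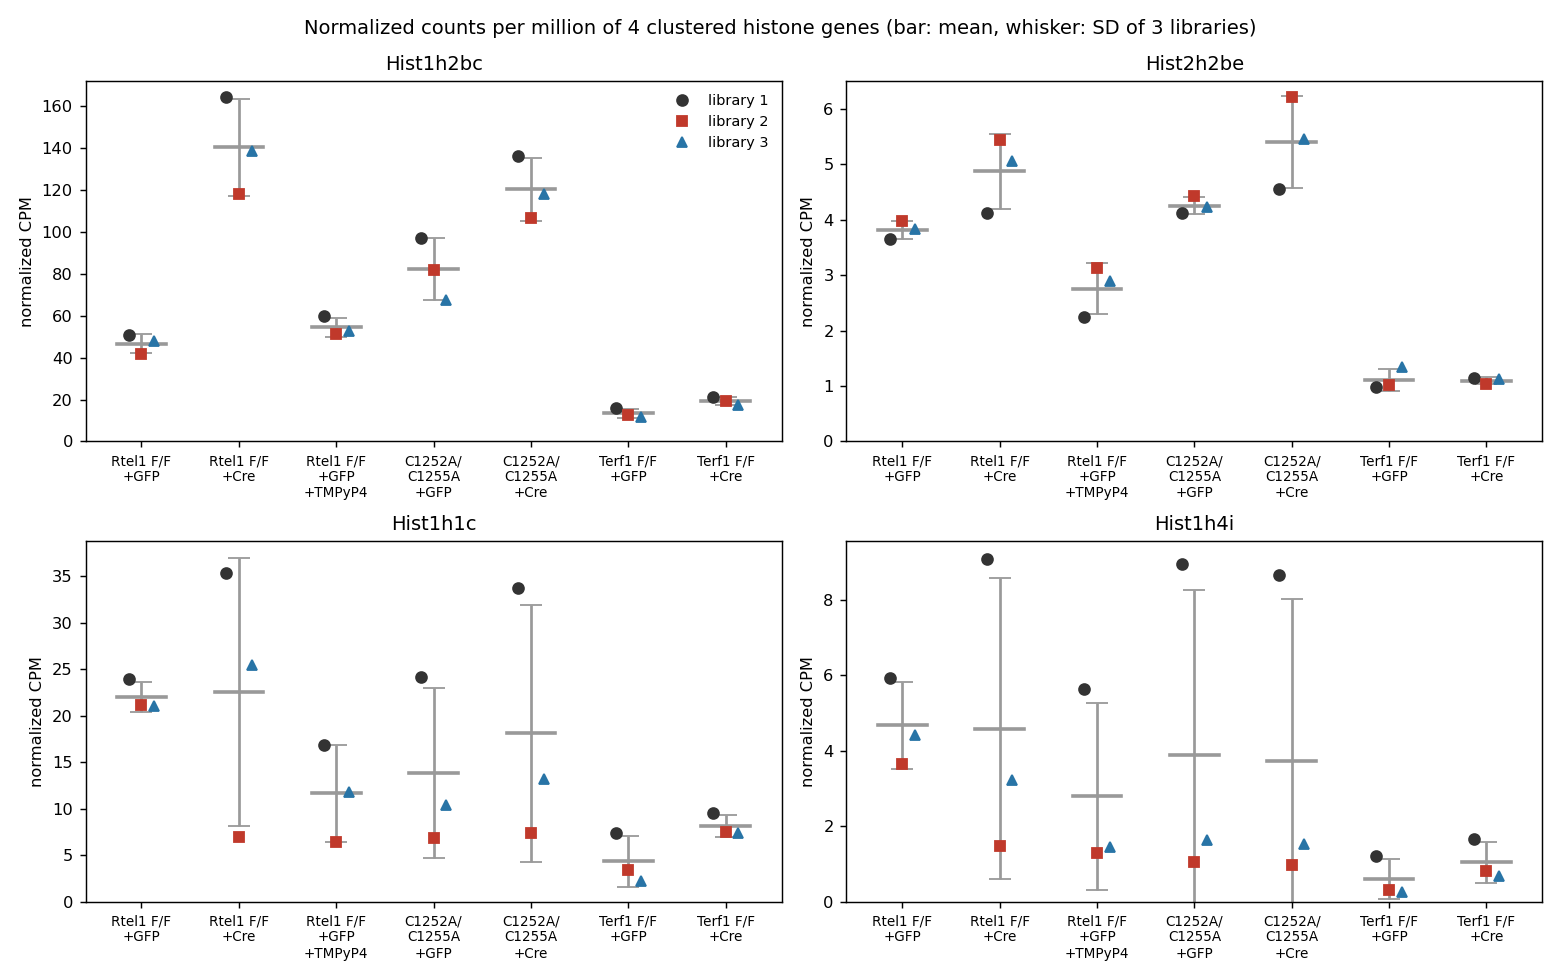
Each panel plots 1 gene, with normalized CPM on a linear axis from 0 against the 7 groups. Points are replicates 1, 2 and 3 (circle, square, triangle), the bar is the mean and the whisker the SD of 3 libraries. Hist1h2bc is at 118 CPM or more in all Rtel1 F/F +Cre libraries and at 50.7 or less in +GFP, and replicate 1 stands above the other replicates in all 7 groups for both Hist1h2bc and Hist1h4i, with log2 ratios of 0.18 to 0.39 and of 0.54 to 2.69.

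Few members were called with TMPyP4 treatment, where the median SE of the members was 0.79, beside 0.12 over all genes. Hist1h2bb rose, with 10, 14 and 11 counts in treated libraries against 6, 4 and 6 in +GFP (log2 fold change 1.43 ± 0.39, adjusted p = 0.00684). Hist1h2bc was at 59.8, 51.4 and 52.6 CPM, just above the range in +GFP, and was not called (0.23 ± 0.15, 1.17-fold, adjusted p = 0.227). Hist2h2be was lower without passing the threshold, at 2.25, 3.13 and 2.89 CPM (-0.46 ± 0.15, adjusted p = 0.0172). Hist1h1c was at 16.8 CPM in replicate 1 and at a mean of 9.08 in replicates 2 and 3. Every treated library was below every +GFP library, and the gene was not called (-0.92 ± 0.62, adjusted p = 0.243).

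In all, 1 of 33 members rose and 0 fell with TMPyP4, and 4 had an unadjusted p under 0.05, beside 30.0% of all genes tested called, 16.6% higher and 13.4% lower. The call of Hist1h2bb was lost with each of the 6 libraries left out in turn (adjusted p from 0.0105 to 0.0393) and by DESeq2 (adjusted p = 0.0248), which called 0 members. Without replicate 1 in any group, a choice made after seeing the data, Hist1h4i fell by 1.57 on the log2 scale (adjusted p = 0.00108) and Hist2h2aa1 by 3.27 (adjusted p = 0.000397). With all libraries Hist1h4i was at -0.77 ± 0.91 (adjusted p = 0.518) and Hist2h2aa1 at -1.73 ± 1.15 (adjusted p = 0.239) on that scale. Rpph1, the RNA of RNase P, which has no poly(A) tail, was at 3.72, 3.89 and 6.61 CPM in +GFP and 2.63, 0.337 and 1.03 in treated libraries. Its part in these values was not tested.

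Compared with TMPyP4 directly, Rtel1 loss gave higher Hist1h2bc (log2 difference 1.36 ± 0.15, 2.57-fold, adjusted p = 3.08e-06) and higher Hist2h2be (0.81 ± 0.15, 1.76-fold, adjusted p = 0.000488). All 3 +Cre libraries lay above all 3 treated libraries for both genes. These were 2 of 33 members, beside 15.2% of all genes tested. Hist1h2be, an H2B gene, just missed the threshold (1.27 ± 0.35, adjusted p = 0.0112, no overlap between groups) and was called in 4 of 13 other fits. With only the 2 groups in the fit, Hist2h2be lost its call (adjusted p = 0.0162). With same-numbered replicates as a block, which this pair of groups warranted, both remained called (adjusted p = 8.22e-08 and 0.000184). That block also held the Rtel1 F/F +GFP libraries, whose replicates were not taken as paired with either group.

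In cells with RTEL1 C1252A/C1255A, Hist1h2bc was at 97.0, 81.9 and 67.5 CPM before and 136, 107 and 118 after Cre. The ranges did not overlap, and the log2 fold change was 0.55 ± 0.15 (1.46-fold). The adjusted p of 0.0497 missed the threshold of 0.01, and with same-numbered replicates as a block, warranted in this comparison, the gene was called (0.56, adjusted p = 0.00128). No other member was called: by edgeR 0 of 33, with 7 at an unadjusted p under 0.05, beside 1.09% of all genes tested, and by DESeq2 1, Hist1h2bc (adjusted p = 0.00865). Hist1h1a and Hist1h1b were at 0.91 ± 0.37 and 0.78 ± 0.28 on the log2 scale (adjusted p = 0.233 and 0.165).

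After loss of Terf1, Hist1h2bc was at 21.4, 19.3 and 17.6 CPM against 15.96, 12.8 and 11.6 before. Again the groups did not overlap and the threshold was missed (log2 fold change 0.53 ± 0.15, 1.45-fold, adjusted p = 0.0451). By edgeR 0 of 33 members were called, with 1 at an unadjusted p under 0.05, and by DESeq2 0, beside 3.42% of all genes tested. Hist2h2be was at 1.11 ± 0.201 CPM before and 1.10 ± 0.0592 after (log2 fold change -0.01 ± 0.17, adjusted p = 0.995).

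The change in Hist1h2bc after Rtel1 loss was larger than after Cre in the other cells. The difference of log2 fold changes was 1.04 ± 0.21 against the C1252A/C1255A cells (adjusted p = 0.000774) and 1.06 ± 0.21 against Terf1 F/F cells (adjusted p = 0.000648). Both used the same Rtel1 F/F libraries. It was the only member called in either test, 1 of 33 each, beside 25.1% and 30.2% of all genes tested, and all 19 other fits of each difference called it.

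**Figure D2:**
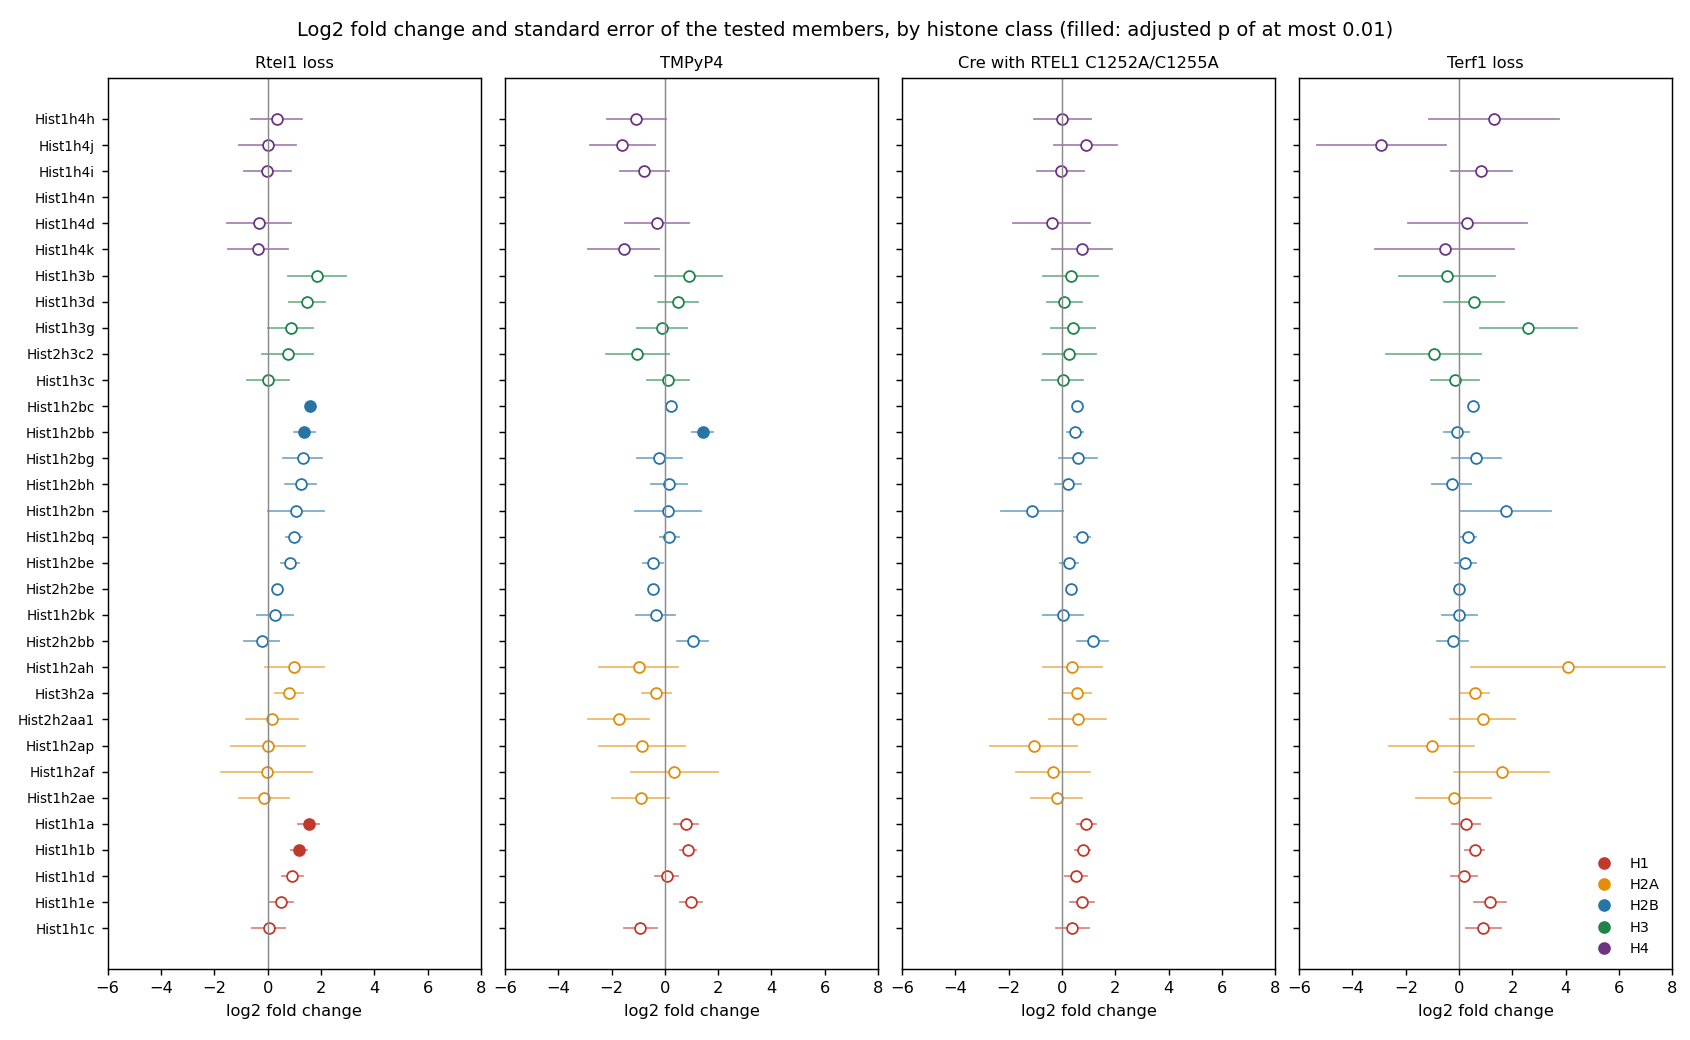
The log2 fold change (x axis) of each tested member (rows, grouped and coloured by histone class) is plotted in 4 comparisons, with bars for the SE and filled points for an adjusted p of at most 0.01. Hist1h2br, which equals Hist1h2bq, and Hist1h4n, whose SE reached 28.9, are left out. After Rtel1 loss 4 points are filled, with TMPyP4 1, and in the remaining panels none, while the H2A, H3 and H4 bars are mostly wider than those of Hist1h2bc and Hist2h2be.

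Before Cre, the lines already differed. Hist1h2bc was at 82.2 ± 14.7 CPM in C1252A/C1255A +GFP against 46.6 ± 4.68 in Rtel1 F/F +GFP (log2 difference 0.82 ± 0.15, adjusted p = 0.000141). Hist1h2bb had 20, 11 and 8 counts against 6, 4 and 6 (1.43 ± 0.38, adjusted p = 0.00411). These 2 of 33 members stood beside 44.7% of all genes tested. The call of Hist1h2bb was lost without C1252A/C1255A +GFP replicate 1 (adjusted p = 0.0424) and without Rtel1 F/F +GFP replicate 2 or 3 (0.0206 and 0.0108). Without replicate 1 in any group 1 member was higher and 5 were lower in the C1252A/C1255A cells, namely Hist1h2ap, Hist2h2aa1, Hist1h4h, Hist1h4i and Hist1h4j, at -1.52 to -4.13 on the log2 scale. None of these 5 was called with all libraries.

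In Terf1 F/F +GFP cells 3 members were lower than in Rtel1 F/F +GFP cells and 0 were higher, beside 54.9% of all genes tested. Hist1h2bc was at 13.4 ± 2.26 CPM (log2 difference -1.79 ± 0.15, adjusted p = 1.15e-08), Hist2h2be at 1.11 ± 0.201 against 3.81 ± 0.159 (-1.78 ± 0.16, adjusted p = 1.60e-08) and Hist1h1c at 7.42, 3.36 and 2.23 (-2.34 ± 0.66, adjusted p = 0.00490). Hist1h1c lost its call with any library but Terf1 F/F +GFP replicate 1 left out (adjusted p from 0.0102 to 0.0272). Hist1h4h had 3, 1 and 1 counts in Terf1 F/F +GFP, at or under the 3 counts taken as the limit of measurement, against 0.954 ± 0.381 CPM in Rtel1 F/F +GFP. Rpph1 was at 0.134 ± 0.0813 CPM in Terf1 F/F +GFP and 4.74 ± 1.62 in Rtel1 F/F +GFP, and its part was not tested.

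By class, the summed level of H2B and of H1 genes was mostly that of the highest member. H2B genes summed to 53.4 ± 4.70 CPM in Rtel1 F/F +GFP and 151 ± 24.7 in +Cre, a log2 ratio of 1.496, and without Hist1h2bc to 6.72 ± 0.707 and 10.2 ± 1.67, a log2 ratio of 0.59. H1 genes summed to 23.4 ± 1.52 and 25.5 ± 15.4 CPM, and without Hist1h1c to 1.40 ± 0.1003 and 2.97 ± 0.948. The sums of H2A (5.05 ± 0.188 and 6.50 ± 4.83), H3 (1.82 ± 0.267 and 3.18 ± 2.63) and H4 (7.42 ± 1.52 and 7.17 ± 6.53) differed by less than the SD of the +Cre libraries. In Rtel1 F/F +GFP the H2A sum was still 2.98 ± 0.182 CPM without Hist3h2a, its highest member. The H3 sum there was 1.27 ± 0.183 without Hist2h3c2. With TMPyP4 the H1, H2A and H4 sums were 13.9 ± 5.20, 3.18 ± 1.72 and 4.24 ± 3.71 CPM. H3 and H4 sums in the C1252A/C1255A cells were 1.95 ± 2.27 and 5.55 ± 6.57 before Cre and 2.35 ± 2.53 and 5.68 ± 6.84 after, so the SD exceeded the mean.

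That spread had a shape. The 22 tested members with a stem-loop summed to 38.8, 34.3 and 34.9 CPM in replicates 1, 2 and 3 of Rtel1 F/F +GFP, which were close to each other. In +Cre they summed to 68.6, 12.8 and 43.0, and with TMPyP4 to 32.6, 12.2 and 19.9. In the C1252A/C1255A cells the sums were 50.8, 11.5 and 16.9 before Cre and 62.9, 13.2 and 22.3 after it. Replicate 1 was the highest library of these groups, replicate 2 the lowest. Terf1 F/F cells had 16.2, 8.09 and 5.26 CPM before and 19.1, 14.1 and 13.5 after Cre, again highest in replicate 1. Hist1h1c alone gave much of these sums, with 23.9 of the 38.8 CPM in Rtel1 F/F +GFP replicate 1. Without it the sums were 14.9, 13.2 and 13.9 CPM in Rtel1 F/F +GFP and 33.4, 5.93 and 17.5 in +Cre. The order of the replicates stayed the same in every group.

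Among the members whose model runs on without a stem-loop, Hist1h2bc was also highest in replicate 1 of all 7 groups, by a smaller log2 ratio of 0.18 to 0.39 over the mean of the other replicates. For Hist1h4i, with a stem-loop, that ratio was 0.54 to 2.69. Hist2h2be was highest in replicate 1 in 1 of the 7 groups, Terf1 F/F +Cre. Hist2h2be, Hist1h2bq and Hist1h2br, a sum that holds the shared measurement of Hist1h2bq and Hist1h2br in both, came to 4.45, 4.54 and 4.43 CPM in Rtel1 F/F +GFP, 5.52, 6.28 and 6.74 in +Cre, 4.97, 5.29 and 5.23 in C1252A/C1255A +GFP and 5.84, 7.83 and 7.18 after Cre, where replicate 1 was the lowest. Between replicate 1 and the mean of the other replicates, the median log2 ratio (CPM plus 0.1) over the 22 stem-loop members was 1.67 in C1252A/C1255A +GFP, 1.41 after Cre, 1.09 in Rtel1 F/F +Cre, 0.73 with TMPyP4 and -0.06 in Rtel1 F/F +GFP. For the 4 members with long models and no stem-loop, which are 3 separate measurements and include Hist1h2bc, it was -0.08, -0.33, 0.12, -0.48 and 0.26 in the same groups. In Terf1 F/F +GFP and +Cre the stem-loop medians were 0.61 and 0.30, and those of the long models 0.23 and 0.22. Replicate 1 held the highest level for 22, 19 and 19 of the 22 stem-loop members in C1252A/C1255A +GFP, C1252A/C1255A +Cre and Rtel1 F/F +Cre, whereas it was the highest for 37.6%, 41.6% and 33.5% of all genes tested. With TMPyP4 it did so for 15, beside 37.2%, and in Rtel1 F/F +GFP for 8, beside 39.4%. In Terf1 F/F +GFP and +Cre the counts were 16 and 14, beside 36.9% and 26.3%. The 7 members with short models were mixed. Their median log2 ratio was 1.68 in C1252A/C1255A +GFP, 1.06 after Cre, 1.49 in Rtel1 F/F +Cre and 1.01 with TMPyP4. In Rtel1 F/F +GFP it was -0.12, and in Terf1 F/F +GFP and +Cre 0 and -0.28. High levels in replicate 1 were thus not limited to members with a stem-loop match. Hist1h4k, Hist1h2ah, Hist1h2af and Hist1h2bn were highest in replicate 1 of all 4 of Rtel1 F/F +Cre, TMPyP4 and both C1252A/C1255A groups. Hist1h1a, Hist1h1b and Hist2h2bb were not the highest there with TMPyP4 or in C1252A/C1255A +Cre, while Hist1h1a and Hist1h1b were in Rtel1 F/F +Cre. A member with few counts could pass the filter through the libraries in which it was high. Hist1h3b reached 10 counts in only 3 libraries. It was at 0.388, 0.431 and 0.746 CPM in replicate 1 of C1252A/C1255A +GFP, C1252A/C1255A +Cre and Rtel1 F/F +Cre. The means of the other replicates were 0.0343, 0.0704 and 0.0794 CPM. For such members the filter could in part set which replicate was highest. This grouping by sequence was made after the spread had been seen and carries no test.

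**Figure D3:**
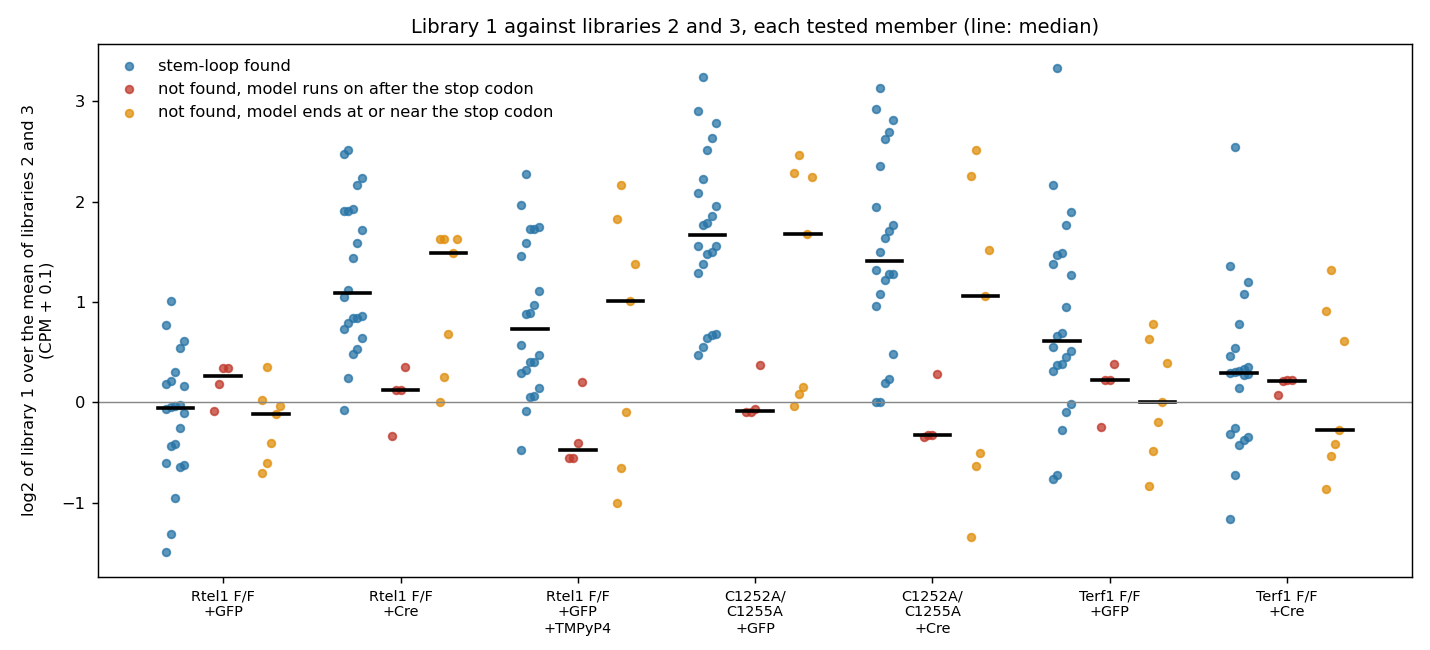
The y axis gives, for each tested member, the log2 ratio of replicate 1 to the mean of replicates 2 and 3 (CPM plus 0.1), by group and by the 3′ end of the gene model, with a line at the median. Stem-loop members have medians of 1.09 to 1.67 in Rtel1 F/F +Cre and both C1252A/C1255A groups and of -0.06 in Rtel1 F/F +GFP. Their medians are 0.73 with TMPyP4, 0.61 in Terf1 F/F +GFP and 0.30 in Terf1 F/F +Cre. The 4 long models without a stem-loop stay between -0.55 and 0.39 in every group. The 7 short models have medians of 1.68 in C1252A/C1255A +GFP, 1.06 in C1252A/C1255A +Cre, 1.49 in Rtel1 F/F +Cre and 1.01 with TMPyP4.

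RNAs that are not clustered histone mRNAs also differed between replicates, in part in other libraries. Rpph1 was at 4.10, 0.223 and 1.26 CPM in Rtel1 F/F +Cre, 2.02, 0.0814 and 0.228 in C1252A/C1255A +GFP and 2.51, 0.515 and 0.399 after Cre, highest in replicate 1 each time. In Terf1 F/F +GFP it was lowest in replicate 1, at 0.0464, 0.207 and 0.149 CPM, where the stem-loop sum was highest. Rmrp, also without a poly(A) tail, was highest in replicate 1 of Rtel1 F/F +Cre (0.653, 0.496 and 0.191 CPM) and of C1252A/C1255A +GFP (0.452, 0.163 and 0.206) and lowest in replicate 1 of C1252A/C1255A +Cre (0.451, 1.15 and 1.17). Rn45s, the precursor of ribosomal RNA, ran the other way in these groups, at 1010, 2771 and 1314 CPM, 787, 2121 and 1990, and 1040, 5856 and 4126. H2afj, a replacement H2A gene, was also high in replicate 1, at 23.96, 8.26 and 13.9 CPM in Rtel1 F/F +Cre and 20.6, 9.06 and 7.65 in C1252A/C1255A +GFP. These are values that accompany the spread, and their part in it was not tested. In bulk RNA, fewer cells in S phase and less histone mRNA per cell cannot be told apart.

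**Figure D4:**
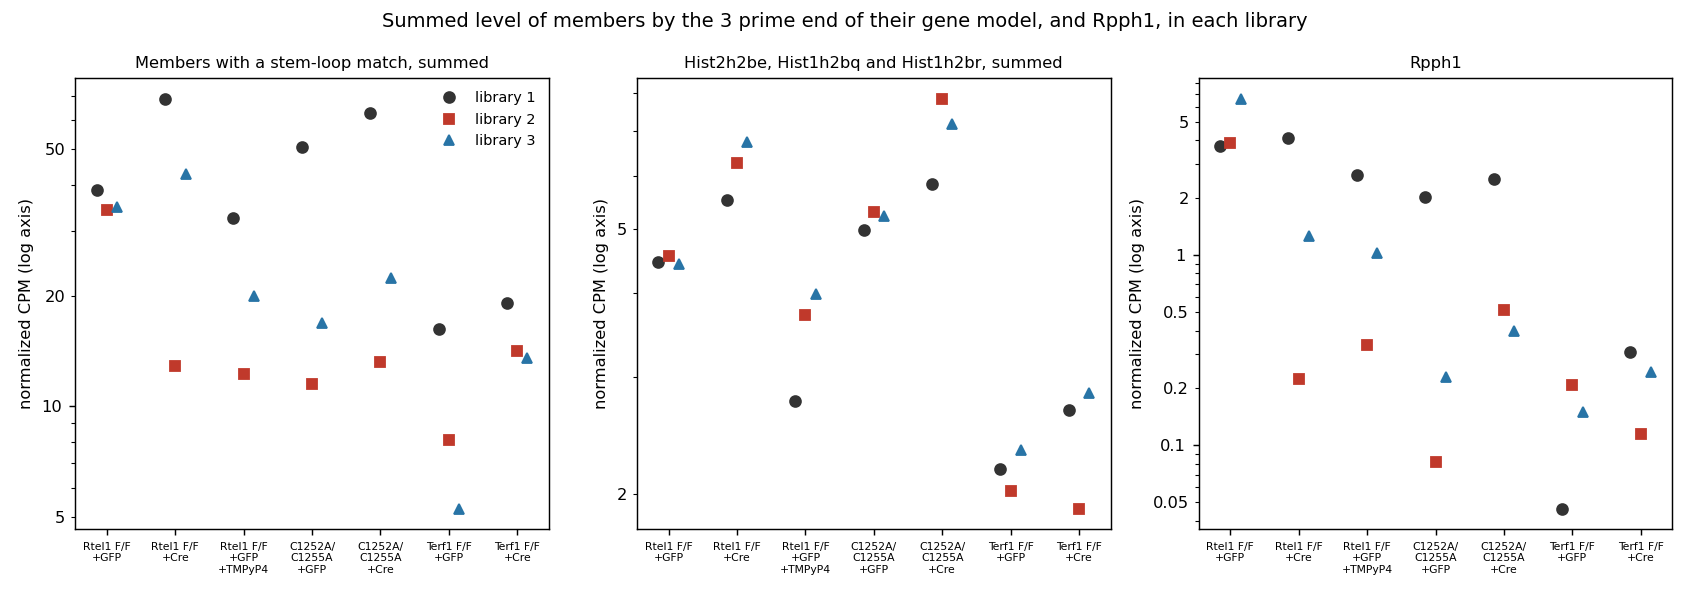
Each point is a library, with normalized CPM on a log axis against group. The left panel sums the 22 tested members with a stem-loop, of which Hist1h1c is the most abundant. The middle one sums Hist2h2be, Hist1h2bq and Hist1h2br (the last pair being 1 measurement, and Hist1h2bc left out), and the right one shows Rpph1. Replicate 1 is on top in the left panel in all 7 groups, with 50.8 against 11.5 and 16.9 CPM in C1252A/C1255A +GFP, and is not in the middle panel.

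Genes that act on histone mRNAs, in lists chosen with earlier results of these data known, were read beside the members. Of 19 genes for 3′ end processing and decay, 6 rose and 2 fell after Rtel1 loss, a share near the 43.0% of all genes called. Cpsf2, a subunit of the cleavage complex, rose by 0.58 ± 0.07 (log2, adjusted p = 1.74e-06), and Lsm1, of the decay machinery, by 0.54 ± 0.08 (adjusted p = 1.06e-05). With TMPyP4 4 rose and 1 fell, near the 30.0% of all genes, and after Cre 0 of 19 were called in C1252A/C1255A cells (0 at an unadjusted p under 0.05) and 0 in Terf1 F/F cells (2 at that level). Of all genes tested 1.09% and 3.42% were called after Cre in those cells. Slbp, the stem-loop binding protein, was not called, at 211, 222 and 222 CPM in Rtel1 F/F +GFP and 215, 266 and 233 in +Cre (0.12 ± 0.10, adjusted p = 0.287). Npat, the activator of clustered histone genes, was likewise not called (0.05 ± 0.08, adjusted p = 0.637).

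Ccne1, the cyclin whose kinase phosphorylates NPAT, rose after Rtel1 loss (1.41 ± 0.08, adjusted p = 1.35e-10), with TMPyP4 (0.43 ± 0.08, adjusted p = 0.000229), after Cre in C1252A/C1255A cells (0.44 ± 0.08, adjusted p = 0.00299) and after Terf1 loss (0.58 ± 0.07, adjusted p = 4.29e-05). In its list of 9 genes for histone gene transcription 4 rose after Rtel1 loss and 2 with TMPyP4, beside 43.0% and 30.0% of all genes called in either direction. Only Ccne1 was called after Cre in C1252A/C1255A cells and after Terf1 loss, beside 1.09% and 3.42%. Of 13 histone chaperones, 7 rose and 1 fell after Rtel1 loss and 5 rose and 1 fell with TMPyP4, beside the same 43.0% and 30.0%. Npm1 rose by 1.37 ± 0.12 (adjusted p = 3.76e-08) and Nasp, the carrier of H1 and H3-H4, by 0.73 ± 0.13 (adjusted p = 0.000110), while Chaf1b, of the factor that sets histones on new DNA, fell by 0.62 on the log2 scale (adjusted p = 5.59e-06). Daxx, a chaperone of the H3.3 variant, was the sole one called after Terf1 loss (0.86 ± 0.12, adjusted p = 7.72e-05), and 0 were called after Cre in C1252A/C1255A cells, with 2 at an unadjusted p under 0.05. The shares of all genes called were 3.42% and 1.09%.

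Replacement histones, most of which are made outside S phase from polyadenylated mRNAs, split. Of 11 genes, 2 rose and 3 fell after Rtel1 loss and 1 rose and 3 fell with TMPyP4, shares near the 43.0% and 30.0% of all genes. After Cre 0 were called in C1252A/C1255A or Terf1 F/F cells, beside 1.09% and 3.42% of all genes. In each, 2 had an unadjusted p under 0.05. H1f0, the linker histone of resting cells, fell by 0.81 (adjusted p = 6.09e-08), H2afv, an H2A.Z gene, by 1.17 (adjusted p = 2.79e-07) and H2afy2, a macroH2A gene, by 0.93 (adjusted p = 1.29e-07) after Rtel1 loss. The 20 S phase genes gave 3 rises and 5 falls after Rtel1 loss, again near 43.0%, with Rrm2, a ribonucleotide reductase subunit, up by 1.19 ± 0.13 (adjusted p = 6.31e-07) and Mcm2 down by 0.46. With TMPyP4 0 rose and 2 fell, Mcm3 and Mcm5, beside 30.0% of all genes. After Cre 0 were called in C1252A/C1255A or Terf1 F/F cells, beside 1.09% and 3.42%, with 3 and 1 at an unadjusted p under 0.05. Among 7 p53 and arrest genes Cdkn1a, Mdm2 and Ccng1 rose in all 4 comparisons, Cdkn1a by 1.22 ± 0.06 after Rtel1 loss and by 0.62 to 0.84 in the other 3. Cdkn1b fell after Rtel1 loss and with TMPyP4, and Cdkn2b after Rtel1 loss. These calls stood beside 43.0%, 30.0%, 1.09% and 3.42% of all genes after Rtel1 loss, with TMPyP4, after Cre in C1252A/C1255A cells and after Terf1 loss. Of 15 RNAs without a poly(A) tail 12 were in the table and 4 were tested. Rmrp, 1 of these 4, fell after Rtel1 loss, from 1.78 ± 0.763 to 0.447 ± 0.235 CPM (adjusted p = 0.000674), beside 43.0% of all genes called. No other gene of this list was called in these 4 comparisons, where 2 with TMPyP4, 1 after Cre in C1252A/C1255A cells and 0 after Terf1 loss had an unadjusted p under 0.05.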

How the data were processed

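RNA-seq libraries were prepared by the study with a poly(A) mRNA kit and read as strand-specific single ends. The authors deposited RSEM expected counts per gene, not normalized, and RSEM TPM for the same 24454 genes. The submitters' processing notes name cutadapt 1.9.1, STAR 2.5.2a, RSEM 1.3.0 and DESeq2 1.28.0 with the mm10 genome. Expected counts were rounded to whole numbers. In R 4.3.3, edgeR 4.0.16 scaled libraries by TMM, filtered genes with filterByExpr and fitted a group mean for each of the 7 groups to all 21 libraries by robust quasi-likelihood, with two-sided tests and Benjamini-Hochberg adjustment over 13719 genes. Calls were made at an adjusted p of at most 0.01. DESeq2 1.42.0 was an alternative. TPM served only for levels between genes. Errors are SDs of 3 libraries or SEs of the fit. Totals of 32069890 to 51938590 counts set the precision of low members, and a level of 3 counts or fewer in a library was treated as the floor.

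The members and the gene lists were chosen with earlier results of these data known. Any member with 10 or more counts in 3 libraries could be named. Values in every library were due for the 2 members of each class with the highest mean TPM, for Hist1h1c, Hist1h2bc, Hist2h2be and Hist3h2a, and for the 3 largest called rises and falls per comparison with a mean of at least 1 CPM. From each list up to 3 called genes with the largest changes were eligible. Hist1h1a and Hist1h2bb counts, Slbp, Npat, H2afj, Rpph1, Rn45s and Cdkn2b were added after their values were seen. Stem-loops and positions came from GENCODE vM21 models (GRCm38), promoters from RefSeq tables of GRCm38.p6. The edgeR script was tested on simulated data. Same-numbered replicates deviated together in C1252A/C1255A cells (correlations of 0.903, 0.893 and 0.496 over 11840 genes) and between +Cre and TMPyP4 (0.807, 0.837 and 0.491), above the minimum of 0.1, and were taken as paired there from the data alone. Alternatives were another tool, normalization, filters, threshold, sample sets, the replicate block, another control group and each library left out in turn. Leaving out replicate 1 of every group was added after seeing the data. Figures, which call replicates libraries, were drawn with matplotlib 3.10.9.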

Additional observations from a re-analysis of the deposited data

Results flagged for a closer look

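Hist1h2bc was set apart because its response differed between cell lines in a direct test. Its log2 fold change after Cre was larger in Rtel1 F/F cells than in RTEL1 C1252A/C1255A cells by 1.04 (edgeR interaction, adjusted p = 0.000774) and than in Terf1 F/F cells by 1.06 (adjusted p = 0.000648). In each line all 3 +Cre libraries lay above all 3 +GFP libraries. The Rtel1 F/F +GFP libraries, which both tests share, also differed from the C1252A/C1255A +GFP libraries at this gene by 0.82 on the log2 scale, and the part of that difference in both results was not tested.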

How the results depend on the processing

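Hist1h2bc kept its call after Rtel1 loss, against TMPyP4 and in both differences of Cre effects under every alternative run, whereas counts of called members moved. After Rtel1 loss, where 4 members rose, 8 did at an adjusted p of at most 0.05, 2 with only the groups compared in the fit, 7 with the replicate block, 1 against C1252A/C1255A +GFP, 2 with replicates 2 and 3 only (chosen after seeing the data), and 1 to 7 with a library left out. Over all genes, calls went from 5902 in the main fit to 7172 with the block and 4386 with only the groups compared. The fit of only the groups compared tested 25 members, and that of replicates 2 and 3 tested 26 and called 5900 genes. With TMPyP4, where 1 rose and 0 fell, 2 rose and 1 fell at 0.05 and again with the replicate block, 0 rose by DESeq2, with only the groups compared and with any library left out, and 0 rose and 2 fell against C1252A/C1255A +GFP and with replicates 2 and 3 only. Of all genes 4114 were called in the main fit, 5434 with the block and 4331 by DESeq2. Only the groups compared gave 3754 and replicates 2 and 3 gave 4243, with 26 members tested in each. After Cre in C1252A/C1255A cells 1 rose at 0.05, by DESeq2 and with the replicate block. There 150 genes were called in the main fit, 337 by DESeq2 and 215 with the block. After Terf1 loss 1 rose at 0.05 and with the replicate block, where calls over all genes went from 469 in the main fit to 642. For Rtel1 loss against TMPyP4, where 2 were higher, 1 was with only the groups compared and 3 were by DESeq2, with its size factors in edgeR and at 0.05. Calls over all genes were 2088 in the main fit, 933 with only the groups compared (23 members tested) and 2408 by DESeq2. For C1252A/C1255A cells before Cre 1 was higher by DESeq2, with only the groups compared and with replicates 2 and 3 only, which also called 5 lower, and 1 to 2 were higher with a library left out. Of all genes 6138 were called in the main fit and 6452 by DESeq2. Only the groups compared gave 4802 (24 members tested) and replicates 2 and 3 gave 6298 (26 tested). Between Terf1 F/F and Rtel1 F/F cells before Cre 8 were lower at 0.05, 7 by DESeq2, 7 with only the groups compared, 10 with the replicate block and 11 with replicates 2 and 3 only. Of all genes 7529 were called in the main fit, 7695 by DESeq2 and 8541 with the block. Only the groups compared gave 7590 (21 members tested) and replicates 2 and 3 gave 6993 (26 tested). In the difference between Rtel1 and Terf1 loss 2 were lower with replicates 2 and 3 only. That fit called 4319 of all genes, beside 4147 in the main fit, and tested 26 members.

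Against C1252A/C1255A +GFP the sign turned for Hist1h2bb after Rtel1 loss (-0.062) and with TMPyP4 (-0.0043) and for Hist1h2bc with TMPyP4 (-0.59, adjusted p = 0.00597). Without the highest member, the log2 ratio of the H2B sum was 0.59 after Rtel1 loss, -0.17 with TMPyP4 and 0.17 after Terf1 loss, and that of the H1 sum 0.66 with TMPyP4. From TPM the H2B ratio with TMPyP4 was 0.015. Apart from fewer genes or samples in some fits, the cause was not tested. Replicate numbers were not taken as pairing the samples in the other comparisons, where correlations ran from -0.185 to 0.564. Depth limits most members, which had few counts.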
